A study of Danio rerio with 6 samples.

Results

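The regions described here are the 105 open chromatin regions whose nearest annotated gene was a microRNA, out of 9546 regions in the authors' annotated comparison of cortisol-treated and control zebrafish blood. They were chosen by gene name, as the rows whose name begins with mir and a digit (88 regions) or with mirlet7 (17 regions), and they carried 60 gene names. ATAC-seq, in which a transposase inserts sequencing adapters into accessible DNA, was done on blood of adult AB zebrafish. The larval medium held 1 µM cortisol for the first 5 days in 3 libraries, and the vehicle DMSO in the 3 control libraries, after which all fish were kept without treatment. By the paper's account the control fish were brothers and sisters of the treated fish. The fish were 12 months old in replicate 1 of both groups, 11 months old in replicate 2 and 10 months old in replicate 3. The paper describes blood pooled from 6 fish of both sexes for each library, whereas the deposited design text speaks of 6 individual adults, so it is not settled whether n counts pools or fish. The 9546 regions were themselves selected on the difference in pooled signal between the groups, as those listed higher in cortisol-treated fish. Differences between cortisol and control libraries in these regions are therefore given as a description without a test.

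A microRNA gene is transcribed into a long primary transcript, from which Drosha and Dgcr8 cut a hairpin that Dicer then trims to the mature RNA, and Argonaute proteins carry that RNA to the messages it represses. In red cells of fish and mammals the *mir144* and *mir451* hairpins come from a shared primary transcript, and *mir451* is matured by Ago2 without Dicer. *mir142* marks blood cells in general, *mir150* and *mir155* are best known from lymphocytes, *mir223* from myeloid cells, and the let-7 family from the timing of differentiation. In the annotation used by the authors the start of a microRNA gene is the first base of its hairpin, so a distance to the start says how far a region lies from the hairpin and not from the promoter of the primary transcript.

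Each deposited peak carries a score, the -log10 q at its summit multiplied by 10, which is not scaled between libraries. Each region was therefore given a percentile in each library, its rank by score among the 13835 merged regions that held a peak in all 6 libraries, with 0 where the library had no peak. A percentile does not tell a larger share of open cells from more open chromatin in each cell. The 6 lists held from 26905 to 138146 peak entries, and the longest was that of control replicate 1. An interval with several summits is listed once per summit, so the 138146 entries of control replicate 1 covered 119526 intervals. A region took the highest score of any entry whose interval overlapped it, also where that summit lay outside the region. Read totals were not used here. Marker genes of blood cells could be looked up in this table alone, which holds only regions listed as higher in cortisol-treated fish, so a missing row says nothing on whether a cell type was present. Of 10 erythroid genes 9 had a region (29 regions, with *hbba1* the exception), against 0 of 6 myeloid, 1 of 7 lymphoid (*ikzf1*), 2 of 5 thrombocyte genes and 1 of 6 genes of other tissues (*fabp10a*). The 29 erythroid regions, 8 of them named for *sptb*, had a median mean percentile of 77.6 over the 6 libraries, against 62.6 over all rows. The median was 83.5 for the 2 thrombocyte regions, and the values were 73.2 at *fabp10a* and 38.7 at *ikzf1*. The *fabp10a* region was intergenic, 28109 bp downstream of the start. High ranks were thus also found at genes that are not erythroid, but on too few regions to compare the cell types.

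Most microRNA regions lay far from the hairpin. Of the 105 regions 86 (81.9%) were intergenic, against 35.4% of all rows of the table, and 6 (5.71%) were annotated as promoter, against 47.1%. A further 8 (7.62%) lay at a transcript end, against 1.18% of all rows, 5 (4.76%) in an intron, against 11.6%, and 0 in an exon. Of these 8, 5 lay within 1 kb and were named for the end of the hairpin itself, which the annotation treats as a whole transcript. The other 3 lay at the ends of coding genes. They were 3.19% of the microRNA regions beyond 1 kb, against 2.19% of all rows beyond 1 kb. The median distance between the centre of a region and the start was 19195 bp, against 551 bp over all rows, and the range was 436 to 386141 bp. Within 1 kb of the start there were 11 regions, between 1 and 10 kb 27, between 10 and 100 kb 52 and beyond 100 kb 15. Upstream regions numbered 71 and downstream regions 34. None of the 105 regions, as listed, reached its start site. Peaks in the library lists can be wider, and the joined peak at *mir144* and *mir451a* described below ran over the rebuilt *mir451a* start. The hairpins themselves have a median length of 92 bases (60 to 148) in the RefSeq annotation of GRCz12tu, a later assembly than the GRCz10 of the files.

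**Figure D1:**
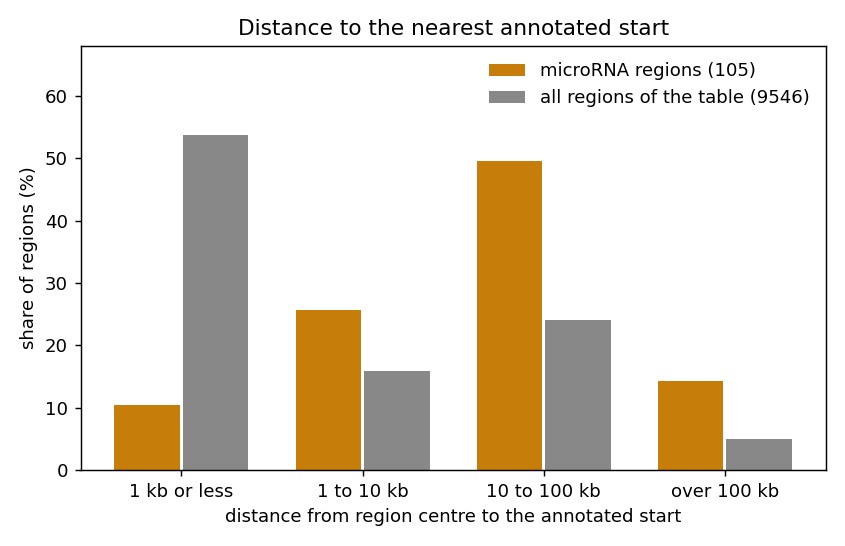
Share of regions (percent, vertical axis from 0) by distance from the centre of the region to the nearest annotated start, for the 105 microRNA regions (orange) and all 9546 regions of the table (grey). Of the microRNA regions 10.5% lay within 1 kb and 49.5% between 10 and 100 kb, against 53.7% and 24.1% of all regions.

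The median rank was much the same near to and far from a hairpin, although the extremes were not. Of the 105 regions 97 (92.4%) had a peak in all 6 libraries, against 93.1% of all rows, 3 had one in 5 libraries and 5 in 4 or fewer. The median over regions of the mean percentile across the 6 libraries was 63.4, against 62.6 over all rows. It was 63.3 for the 11 regions within 1 kb and 63.7 for the 94 beyond it. Of the 11, 4 (36.4%) had a mean percentile above 90 and all had a peak in every library, and of the 94, 12 (12.8%) and 86 (91.5%) did. Mean percentiles above 90 were found for 16 regions (15.2%, against 12.7% of all rows) and below 50 for 36 (34.3%, against 34.1%). Among the 16, and among the 12 beyond 1 kb, 4 regions lay in satellite sequence, and 3 of these fell in the single peak described below. The median width was 347 bp, against 373 bp.

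The highest ranks near a hairpin were at *mir7a-3* and at the *mir144* and *mir451a* pair. The region 685 bp downstream of the *mir7a-3* start (GRCz10 chromosome 8, 159746 to 160392), just past the hairpin, stood at percentiles 99.64, 99.69 and 99.90 in the cortisol libraries and 99.24, 99.24 and 99.81 in the control libraries. By mean percentile it stood above 99.5% of all rows, and the groups overlapped through control replicate 3. The scores were 24070, 28987 and 22934 in cortisol replicates 1, 2 and 3 and 10737, 9131 and 25123 in the controls. Scores were low in control replicates 1 and 2 over the whole genome too, where the median score of the 13835 common regions was 307 and 290, against 725 in control replicate 3 and 603 to 1035 in cortisol libraries, so these raw scores show nothing particular to *mir7a-3*. miR-7 is known from endocrine and nerve cells in mammals. The other region of this gene, 3127 bp upstream at the transcript end of *tmed7*, stood at 79.7, 76.5 and 82.9 in cortisol and 75.8, 72.4 and 75.0 in control libraries, so that each cortisol library was above each control library. Around this start 20 merged regions of any kind lay within 20 kb, and 5 of them had a peak in all 6 libraries.

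At the erythroid pair on chromosome 5, 3 regions lay side by side. The region 502 bp upstream of *mir144* (41672228 to 41672795), annotated as promoter of *mir451a*, stood at 98.8, 99.2 and 99.6 in cortisol and 97.9, 98.1 and 99.3 in control libraries. Both groups were in the top few percent, and control replicate 3 was above cortisol replicates 1 and 2. The region 1664 bp downstream of *mir451a* (41669866 to 41670560), at the transcript end of *eral1*, stood at 92.0, 89.3 and 94.2 in cortisol and 88.1, 89.2 and 92.1 in control libraries, also with overlap. The region between them, 476 bp downstream of the *mir451a* start (41671232 to 41671571), had the widest gap between the groups of any microRNA region, at 98.8, 99.2 and 99.6 in cortisol and 32.0, 28.8 and 99.3 in control libraries. The means were 99.2 ± 0.434 and 53.4 ± 39.8 (SD, n = 3 each), a difference of 45.8 points.

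The peak outlines show where that gap came from in the values. In the 3 cortisol libraries and in control replicate 3 a single peak of 1593 to 1914 bp ran over both this region and the *mir144* region. Both were given the highest score listed for that peak, wherever its summit lay. This score was 12880, 18292 and 13862 in cortisol and 13859 in control replicate 3. In control replicates 1 and 2 the peaks were separate. There the *mir144* peaks had widths of 566 and 976 bp and scores of 5374 and 4328, and the *mir451a* peaks widths of 342 and 438 bp and scores of 179 and 157. The difference of 45.8 points is thus one between a joined and a divided peak, and its size is not a measure of signal at the 476 bp region alone. The start of *mir451a*, rebuilt from its 2 regions, was on the minus strand. That of *mir144* lay 132 bp away on the same strand, which a shared primary transcript implies. Its 1 region alone does not settle the strand, and on the other strand the gap would be 1136 bp.

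**Figure D2:**
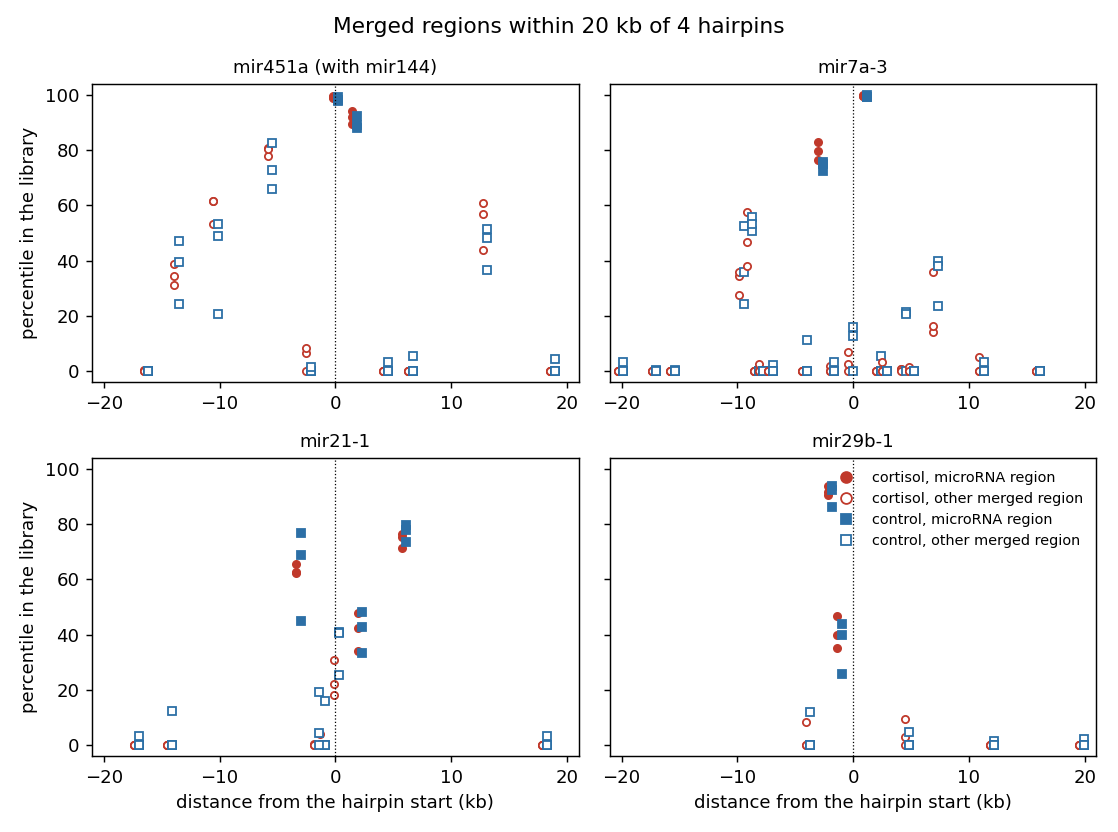
Percentile in each library (vertical axis, 0 to 100) of merged regions within 20 kb of 4 hairpin starts, against distance from the start in kb (positive is downstream). Cortisol libraries are red circles and control libraries blue squares, filled for regions that hold a microRNA region. The filled points nearest the *mir451a* start lie at 97.9 or above in all libraries, because merging joins the *mir144* and *mir451a* regions. At *mir21-1* merging joins the regions 2911 and 3799 bp upstream, and the groups overlap in the joined region.

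The other regions within 1 kb ranged from the highest ranks to well below the middle. The promoter region of *mir210*, the microRNA induced by hypoxia in mammals, lay 812 bp upstream of the hairpin and stood at 91.0, 93.6 and 95.3 in cortisol and 90.8, 92.4 and 93.1 in control libraries. That of *mir101a*, 436 bp upstream and the nearest of all, stood at 91.67, 93.18 and 92.56 in cortisol and 86.69, 92.05 and 90.04 in controls. At both the groups overlapped and all 6 libraries had a high rank, although each cortisol library stood above the control library of the same age. At *mir26b*, 678 bp upstream, the values were 67.5, 63.5 and 58.1 against 63.8, 64.7 and 62.3, with no separation.

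Regions past 3 further hairpins were of middle rank. At *mir30b*, 500 bp downstream, the cortisol libraries stood at 59.4, 58.4 and 59.9 and the controls at 19.5, 51.4 and 55.2, a difference of 17.2 points without overlap of the groups. It was the single region within 1 kb with every cortisol library above every control library, and control replicate 1 lay far below the rest. That is 1 of 11 regions (9.09%), near the 8.31% of all rows within 1 kb. At *mir150*, 637 bp downstream, the values were 44.6, 55.6 and 55.6 in cortisol and 59.7, 50.4 and 52.0 in control libraries, and at *mir145*, known from smooth muscle, 578 bp downstream, 44.6, 50.4 and 47.0 against 16.0, 45.2 and 56.2. Both overlapped, and the mean difference was -2.13 points at *mir150* and 8.18 at *mir145*.

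The lowest ranks within 1 kb were at *mir29b-1* and *mirlet7j*. The *mir29b-1* region, 933 bp upstream, stood at 35.1, 46.9 and 39.7 in cortisol and 39.7, 25.7 and 43.7 in controls, and the *mirlet7j* region, 447 bp upstream, at 39.6, 47.3 and 33.9 against 19.5, 28.8 and 42.3. Groups overlapped at both. Just beyond 1 kb, the region 1097 bp upstream of *mir142a* (chromosome 5, 2839713 to 2840101) stood at 83.2, 88.8 and 91.5 in cortisol and 85.0, 84.9 and 88.9 in control libraries, which overlapped.

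**Figure D3:**
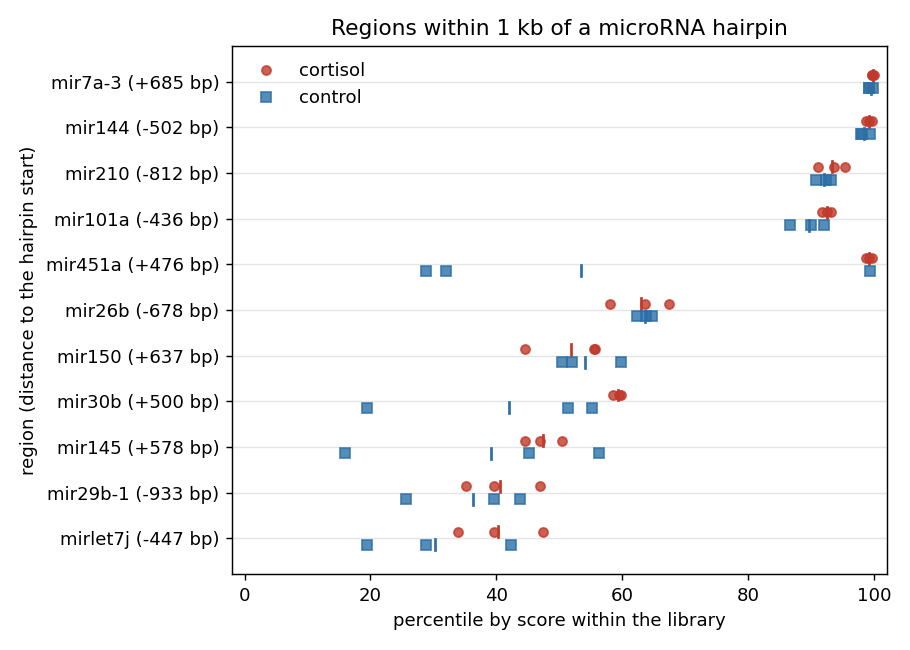
Percentile by score in each library (horizontal axis, 0 to 100) of the 11 regions within 1 kb of a microRNA hairpin, with cortisol libraries as red circles, control libraries as blue squares and group means as vertical ticks. At *mir451a* control replicates 1 and 2 stand at 32.0 and 28.8 and the other 4 libraries at 98.8 or above.

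A single region was listed for 33 of the 60 names, while 27 names held the other 72 regions. *mir2185-2* had 6 regions, *mir100-2*, *mir21-1*, *mir29b-1* and *mirlet7d-1* had 4 each, 6 names had 3 and 16 had 2. The 6 regions of *mir2185-2* lay on 2 chromosomes, 3 on chromosome 1 and 3 on chromosome 17. Those on chromosome 17 were in SAT-1_DR satellite sequence 152581 to 153825 bp from the start and fell in a single peak of 11575 to 11730 bp. All 3 were given its highest listed score, so they took the top percentile of all members, 99.9, in every library. They are 1 value counted 3 times. The region of *mir430a-18*, a gene of the family that clears maternal messages in the early embryo, also lay in this satellite, 148797 bp upstream, at 99.4 to 99.9. Reads of 30 bp with up to 3 equally good positions were kept and placed at 1 of them, and reads with more were dropped. Such reads do not tell copies of a repeat apart, and the part of this in these 4 ranks was not tested. In all, 11 regions (10.5%) lay in an annotated repeat, against 5.59% of all rows. Of the 11, 10 were intergenic and 1 was in an intron. The 2 shares are not like for like, since 81.9% of the microRNA regions were intergenic, against 35.4% of all rows. The 11 also count the chromosome 17 peak 3 times, so no excess of repeats is read from them.

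Around *mir21-1*, a microRNA known from inflammation, the 4 regions differed in rank and in direction. The region 5327 bp downstream had a mean percentile of 75.6 and a cortisol minus control difference of -2.57 points, that 2119 bp downstream 41.4 and -0.03, and that 3799 bp upstream 63.2 and -0.52. The region 2911 bp upstream stood at 65.5, 62.5 and 62.4 in cortisol and 61.0, 39.2 and 42.3 in control libraries, with no overlap and a difference of 15.9 points. Of 4 neighbouring regions, then, 1 separated the groups. A merged region centred 110 bp downstream of the start, not among the 105, stood at 30.8, 22.2 and 18.0 in cortisol and 40.9, 40.5 and 25.4 in controls. There the groups overlapped, and the control library was higher in each pair of equal age. At *mir29b-1*, known for collagen messages as targets in mammals, the region 2024 bp upstream had a mean percentile of 91.3, far above the 38.5 of the one 933 bp upstream, and 2 distant regions at 38321 and 44596 bp downstream had 82.2 and 74.8.

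Upstream of *mir100-2* the 4 regions all had positive differences. They stood in 2 pairs, 17453 and 16210 bp and 39558 and 40583 bp upstream, with mean percentiles of 79.3, 17.9, 60.4 and 14.0 and differences of 10.8, 9.44, 16.9 and 7.71 points. The groups were apart at 17453 bp alone, with 87.7, 84.1 and 82.3 in cortisol and 79.9, 68.6 and 73.3 in control libraries. In the RefSeq annotation *mir100-2* lies within 10 kb of *mir125b-2* and *mirlet7a-4*, so these regions are as much upstream regions of that cluster as of 1 gene.

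The let-7 genes had 17 regions at 8 names, all of them upstream and 1 within 1 kb. Their median mean percentile was 64.7 and their median difference 1.80 points, with 11 of 17 positive (64.7%, against 79.0% of all rows) and 0 with the groups apart, against 9.54% of all rows with every cortisol library above every control library. Of the 17, 16 were intergenic, and over all intergenic rows these 2 shares were 76.4% and 10.4%. With 17 regions, 2 of them in 1 peak, nothing is read from the contrast. The highest was 33208 bp upstream of *mirlet7g-1* (90.5, 90.3 and 93.8 in cortisol and 89.6, 89.2 and 93.0 in controls), followed by the region 4654 bp upstream of *mirlet7a-1* at 88.3, 88.7 and 90.2 against 88.7, 87.7 and 89.3. The lowest was 60088 bp upstream of *mirlet7d-1*, which had a peak in 3 libraries, with 22.2 and 13.3 in cortisol replicates 2 and 3, 3.21 in control replicate 3 and 0 in the rest. The 4 regions of *mirlet7d-1* had mean percentiles of 64.7, 45.5, 44.2 and 6.45. At 79478 bp upstream the values were 43.2, 59.0 and 67.9 in cortisol and 43.2, 3.36 and 48.3 in controls, which overlapped. The low value of control replicate 2 enlarged the difference of 25.0 points. The 2 regions of *mirlet7a-3*, 8318 and 8929 bp upstream, fell in a single peak in each library and so share their values. *mirlet7a-6* (80.8 and 35.4), *mirlet7g-2* (50.9 and 41.5) and *mirlet7i* (72.3, a single region) were between.

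Of a list of 29 microRNA names of blood cells, 13 had a region (38 regions), against 3 of 10 names of other tissues (6 regions). The blood list counts the let-7 family as 1 name, with 17 of the 38 regions, and the other list holds *mir133a* but not *mir133b* or *mir133c*. For scale, 60 names had a region and the RefSeq annotation holds 352 microRNA genes, but a name of these lists can match several genes. The counts are therefore not read as a leaning to blood. Names of the list without a row in the table included *mir223*, *mir126a*, *mir126b*, the members of the *mir17a* to *mir92a* cluster and *mir16a* to *mir16c*, although *mir15a-1* and *mir15a-2* lie within 10 kb of *mir16b* and *mir16c*. The table keeps 1 name per region, the nearest, so a hairpin without a row may still share a region with its neighbour. *mir15a-1* had regions 15891, 19828 and 21092 bp upstream with mean percentiles of 73.0, 57.9 and 31.8, *mir15a-2* 1 at 83.3 and *mir15b* 1 at 64.0. The region at 21092 bp had the most negative difference of all members, -10.3 points, from 24.5, 37.4 and 18.0 in cortisol and 42.1, 51.4 and 17.1 in controls, which overlapped.

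The *mir181* genes, which act in lymphocytes in mammals, had 5 regions, all 35751 bp or more upstream. That 146925 bp upstream of *mir181b-1* was high, with 91.9, 93.3 and 90.2 in cortisol and 88.7, 59.7 and 90.8 in controls, whereas its other 2 regions had means of 6.12 and 5.92 and no peak in 3 and 4 of the 6 libraries. *mir181a-1* had 81.8 at 35751 bp upstream and 19.5 at 152198 bp upstream. The region 4306 bp downstream of *mir155*, in intron 10 of the 19 of *mrpl39* (chromosome 1, 585455 to 585688), was low in every library, at 26.4, 28.1 and 35.0 in cortisol and 0.351, 0 and 26.3 in controls. The groups did not overlap, and the gap of 20.9 points rested on control replicates 1 and 2, since control replicate 3 was within 0.1 points of cortisol replicate 1. The regions of *mir146a* (57.3) and *mir146b-1* (76.1 and 29.6), which damp innate immune signalling in mammals, overlapped between groups.

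Regions of further names with 2 or 3 of them were spread from high to low ranks. *mir22a-1* had 2, at 14020 and 21620 bp upstream, with means of 95.7 and 87.2, and the former stood at 96.19, 96.74 and 97.44 in cortisol and 92.02, 95.65 and 96.16 in controls, apart by a small step. *mir2188* had 2 in intron 11 of the 13 of *mat2ab*, at 97.3 (19339 bp upstream) and 41.2 (12449 bp), and *mir23a-4* had 91.9 and 79.4 at 102373 and 63364 bp upstream. *mir221* had 69.5 and 33.6, *mir732* 71.9, 66.7 and 24.6, *mir128-1* 46.6, 36.3 and 19.6, *mir193a-1* 52.7 and 42.7, *mir145* 43.2 and 16.0, and *mir210* 92.7 and 59.0. Ranks thus differed widely within a locus, as at *mir458*, where 3 regions within 6 kb had 61.3, 24.2 and 19.7 and the first stood at 71.7, 67.4 and 71.4 in cortisol and 65.3, 28.8 and 63.4 in controls, apart.

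Regions named for microRNAs of other tissues were found at 2 extremes. The region 21719 bp upstream of *mir9-1*, a gene of the nervous system, stood at 98.1, 97.8 and 97.7 in cortisol and 97.8, 97.1 and 97.4 in controls, above 97.2% of all rows by mean percentile. *mir9-7* had regions at 77.6 and 75.2, the latter with 76.3, 73.8 and 65.9 in cortisol and 78.3, 84.5 and 72.2 in controls, and *mir9-3* had one at 63.4. The lowest of all 105 was 29434 bp upstream of *mir203a*, the epidermal microRNA, with 11.6 and 5.96 in cortisol replicates 2 and 3 and no peak elsewhere. At these distances the name says which hairpin is nearest and nothing on its activity. The muscle microRNAs *mir133b* and *mir133c* had a region each, 3819 and 31357 bp downstream. At *mir133c* the values were 56.6, 52.4 and 53.1 in cortisol and 30.5, 32.1 and 44.4 in controls, and at *mir133b* 5.14, 47.8 and 28.0 against 0, 3.36 and 16.1, which overlapped.

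Over all 105 regions the cortisol minus control difference in mean percentile had a median of 2.18 points, against 3.24 over all 9546 rows, and was positive for 70 regions (66.7%, against 79.0% of all rows) and negative for 32 (30.5%, against 20.97%), with 0 for the 3 regions in the satellite peak. The direction depends on the ranking. When a region was ranked within the full list of each library instead, which moves with the length of that list, the median was -0.509 points, 41 regions were positive and 3 had the groups apart. These values are for the microRNA regions alone, without the share over all rows on that ranking. For scale, the median SD between the 3 libraries of a group was 5.11 points in cortisol and 6.08 in control libraries. All 3 cortisol libraries lay above all 3 controls at 10 regions (9.52%), and the share over all rows of the table was 9.54%. The reverse held at 0 regions, against 0.775% of all rows. In the 3 pairs of equal age the cortisol library was above the control in all pairs at 30 regions (28.6%), against 32.4%. Within 1 kb of a hairpin this held at 6 of 11 regions (54.5%), against 32.9% of all rows within 1 kb. They were those at *mir7a-3*, *mir144*, *mir451a*, *mir210*, *mir101a* and *mir30b*, of which *mir144* and *mir451a* share a peak in most libraries. Nothing is read from these shares, since the rows of the table were themselves selected on this contrast.

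The 10 regions with the groups apart were, besides those at *mir7a-3*, *mir30b*, *mir21-1*, *mir100-2*, *mir155*, *mir22a-1*, *mir458* and *mir133c* given above, 1 at *mir101b* and 1 at *mir2185-2*. The *mir101b* region, 9775 bp downstream in the last intron of *ddrgk1*, stood at 54.1, 51.6 and 59.3 in cortisol and 50.7, 47.4 and 47.7 in control libraries. The *mir2185-2* region, 19195 bp downstream on chromosome 1, stood at 17.3, 15.1 and 20.3 in cortisol and 3.21 in control replicate 3, with no peak in control replicates 1 and 2. The count of 10 became 30 without control replicate 3, 23 without cortisol replicate 1 and 18 without cortisol replicate 3, and over all rows the shares without these libraries were 34.3%, 24.6% and 13.4%. Dropping a library can only keep or raise such a count. Other large differences without separation were 20.5 points at *mir133b* and 19.5 at the *mir193a-1* region 2654 bp upstream (56.1, 55.6 and 45.5 against 16.0, 35.1 and 47.7). The most negative, after *mir15a-1*, were -6.38 at *mir9-7*, -5.94 at the shared peak of *mirlet7a-3*, -5.47 at *mirlet7g-1* (32053 bp upstream) and -5.17 at *mir1388*.

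**Figure D4:**
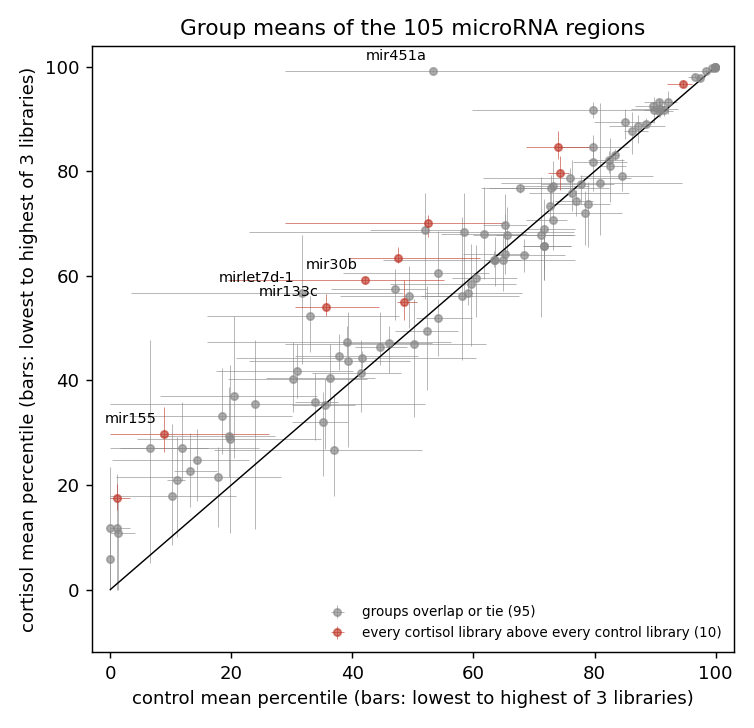
Mean percentile of each of the 105 regions in the 3 cortisol libraries (vertical axis) against the 3 control libraries (horizontal axis), with bars from the lowest to the highest library and the line of equality. The 10 regions in red have every cortisol library above every control library, and *mir451a*, at 99.2 against 53.4, lies farthest from the line.

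Age did not enter the choice of the regions and is balanced over the treatments. Both 12 month libraries lay above both 10 month libraries at 19 regions (18.1%), against 8.82% of all rows, and both 10 month libraries above both 12 month libraries at 39 (37.1%), against 45.8%. Among the 86 intergenic members the shares were 20.9% and 37.2%, against 13.6% and 37.3% of intergenic rows of the whole table. When ranked within the full list of each library the counts turned to 78 and 5. No share over all rows on that ranking stands beside these counts, so nothing particular to microRNA regions is read from them. With 2 libraries against 2 the smallest two-sided exact p for a region is 0.333, so no region was tested. The 19 included *mir9-1*, 2 regions of *mir15a-1*, 3 of *mir100-2* and the shared peak of *mirlet7a-3*, which counts as 2. The 10 month libraries also had the shortest lists (26905 and 29401 peak entries, against 49583 and 138146 at 12 months), and age, replicate number and list length cannot be told apart.

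Clusters of microRNA genes were sparse when read from the table itself. A start could be rebuilt for 27 genes, and among the 60 names *mir144* and *mir451a* were the single pair within 10 kb on either reading of the strand. *mir130c-1* (57.1, 1754 bp upstream) and *mir301c* (48.6, in an intron of *nt5c2l1*) lay 1128 to 22634 bp apart by the table, depending on strand, and within 10 kb in the RefSeq annotation of GRCz12tu. There all 60 names were matched, and 25 had another microRNA gene within 10 kb. Examples are *mir18c* (42.9) beside *mir19c*, *mir20b* and *mir363*, *mir24-1* (82.3) beside *mir27d*, *mir183* (66.2) beside the hairpins of miR-182 and miR-96, and *mir30b* beside *mir30d*. A protein-coding gene overlapped 23 of the 60 hairpins, among them *mir459* inside *runx1*, a regulator of blood stem cells, and *mir2188* inside *ank1a*, which codes for an ankyrin. The region named for *mir459* (64.8) was intergenic and lay 173420 bp upstream of its hairpin.

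Of 25 genes that make or use microRNAs 11 had a region in the table (14 regions), and 10 of these genes had one within 1 kb of their start. The cortisol minus control difference was positive for 12 of the 14, where 79.0% of all rows were positive, with a median of 4.46 points, against 3.24 over all rows. Among the processing genes *dgcr8* stood at 36.0, 55.9 and 61.9 in cortisol and 33.4, 54.3 and 48.3 in controls, and *ran*, which drives nuclear export, at 77.5, 85.1 and 86.3 against 76.7, 84.1 and 88.0. Both overlapped. Of the Argonaute genes *ago2* stood at 20.7, 36.4 and 21.3 in cortisol and 14.4, 36.5 and 28.1 in controls and *ago3b* at a mean of 28.2, both low in all 6 libraries. At *prkra*, a partner of Dicer, the cortisol libraries stood at 69.4, 68.8 and 73.3 and the controls at 57.4, 65.8 and 64.2. This was 1 of the 14 regions with the groups apart, where 9.54% of all rows had every cortisol library above every control library. Nothing is read from that count.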

How the data were processed

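ATAC-seq peak lists from blood were analysed, 3 cortisol-treated and 3 control libraries grouped by the sample labels. Reads trimmed by the authors with Trimmomatic 0.32 and truncated to 30 bp were placed on GRCz10 with bowtie 1.0.0. Peaks came from MACS2 2.1.1.20160309 (q 0.001, 1 background per library) and annotations from HOMER 4.8. The deposited score of a peak is the -log10 q at the summit multiplied by 10, so it rises with depth, and read totals were not used here. The deposited annotated table also holds the authors' score of the comparison between groups, which was not used. In each library a member took the highest-scoring peak entry whose interval overlapped it by at least 1 bp, wherever the summit lay. Percentiles were ranks among 13835 of 153054 merged regions. Gene names of regions come from the table, and neighbouring hairpins and transcript names from RefSeq (GRCz12tu). Unplaced scaffolds, spelled differently in the lists and the table, were matched by name.

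Members and gene lists were chosen with earlier results of these data known. Genes were named if a region was a promoter or within 1 kb, if they had at least 2 regions or a clustered neighbour, if they were on the blood list, or if their percentile or difference was among the 5 highest or lowest, together with *mir7a-3*. Other genes named were chosen after their values were seen. Groups are described without tests. Ranking and overlap were tested on simulated data with separate peaks, 1 score per peak and 1 region per peak. Joined peaks and intervals with several summits were not simulated. Alternatives were other reference ranks, overlaps, score limits, promoter and cluster definitions, same-number pairs and leaving out each library. The motif search planned for promoters was not run. Calculations used Python 3.11.15, numpy 2.4.6, pandas 2.3.3, scipy 1.17.1 and matplotlib 3.10.9.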

Additional observations from a re-analysis of the deposited data

How the results depend on the processing

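Ranking each region among all peaks of the library's own list, which depends on the length of that list, changed most values. The median mean percentile became 86.4, the median cortisol minus control difference -0.509 points in place of 2.18, and the count of regions with every cortisol library above every control library 3 in place of 10. It also made 78 regions higher at 12 months and 5 at 10 months, in place of 19 and 39, and 29 of 105 regions changed the sign of their difference. Shares over all rows on this ranking are not given, so these counts are not read as particular to microRNA regions. Leaving out 1 library at a time gave 11 to 30 regions with the groups apart (10.5% to 28.6%). Over all rows the shares were 12.6% to 34.3%. Median differences were 1.65 to 3.28 points and median mean percentiles 63.2 to 65.0, and 45 regions changed sign without at least 1 library. The count of regions with the groups apart can only stay or rise when a library is dropped, so its rise is no check. As a replicate block, cortisol was above control in all 3 same-number pairs at 30 regions (28.6%, against 32.4% of all rows). The deviations of same-number libraries from their group means correlated across the 105 regions by 0.580, 0.0827 and 0.574, and those of other pairs by -0.588 to 0.173. Deviations from the mean of 3 libraries cancel within a group, so positive values for same-number pairs go with lower ones for the others by construction. The contrast is therefore not read as a sign of pairing. The sources used here do not say that a number marks a shared brood, although the controls are described as brothers and sisters of the treated fish. The paper describes 3 independent replicates of treated adults and their control siblings, so counts over same-number pairs stand beside the group counts. A pairing beyond age was not assumed. Counting every region within 1 kb as a promoter gave 11 in place of 6. A gap of 50 kb put 4 genes in clusters in place of 2. The RefSeq neighbours, an alternative chosen after seeing the data, gave 25 genes within 10 kb of any other microRNA gene. That is another measure, since the 2 and 4 count only genes near another of the 60 names. The cause of these changes was not tested. With scores alone, no counting error can be given for a single value.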
